A study of Sus scrofa with 20 samples.

Results

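Pairs of tags that differed by 1 base were used to describe sequence differences that were present in one pig breed and nearly absent from the other, in pig longissimus muscle, for the breeds Landrace (LR) and Lantang (LT). A pair was LR-polymorphic when the minor of its 2 tags held at least 20% of the pair in LR and the same tag was at most 2% or at least 98% of the pair in LT, and LT-polymorphic in the opposite case. The members were chosen by these shares, with the counts of each breed summed over the 8 stages from 35 dpc to 90 dpn, and each pair had at least 200 counts in each breed. Of 369050 pairs with a 1-base difference among 801159 distinct tags, 101233 reached these totals, and 334 of them met the rule, 135 as LR-polymorphic and 199 as LT-polymorphic.

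Muscle was taken at 35, 49, 63, 77 and 91 days post coitus (dpc) and at 2, 28, 90, 120 and 180 days post natum (dpn). Each of the 20 libraries was made from RNA of 3 animals of one breed and stage in equal amounts, and no combination of breed and stage had a second library. Per the study's methods, the sows of a breed were inseminated with semen of the same boars, the prenatal pools held 3 male fetuses of 2 sows, and the postnatal pools held 3 boars. The methods also report castration of all boars after 2 weeks, which places the pools from 28 dpn on after castration in both breeds. The animals were purebred, and no treatment separated the breeds.

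Digital gene expression (DGE) reads a short tag next to a CATG site, the cut site of the enzyme NlaIII, near the 3′ end of a transcript. Where a transcript carries a base substitution inside the tag, the alternative alleles give tags that differ by that base, and the share of each tag follows the allele's share in the pooled RNA. That share depends both on how many copies of the allele the animals of the pool carried and on how much RNA each copy gave, and these cannot be told apart in pooled samples. Every tag had 21 bases, CATG and the following 17, and the differing base could lie only at positions 5 to 21, counted from 1 at the C of CATG. Errors of PCR or base calling can also give rare tags 1 base away from an abundant tag, and their part in the pairs was not tested.

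The tag of a pair that was at most 2% in the other breed is called the private tag, and its partner the shared tag. Pairs are numbered within each class by the smaller of their total counts in LR and LT. Tags were not matched to genes, since no pig transcript sequences were used here, and the pairs are therefore known by sequence only, the muscle markers could not be checked, and strand and gene position are not given. Library totals lay between 2157111 and 5322022 counts, and the 8 libraries behind the rule summed to 29494012 counts in LR and 34146921 in LT.

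The sequences of the 5 deepest pairs of each class that share no tag with another member are given first because their shares are measured on the most counts. The capital letter marks the differing base, and the substitution gives the base of the shared tag, its position and the base of the private tag.
LRv1 (T8C) shared: catgagcTgtcccatccctcg
LRv1 private: catgagcCgtcccatccctcg
LRv2 (C17T) shared: catgaacacttgatgcCgttt
LRv2 private: catgaacacttgatgcTgttt
LRv4 (C9T) shared: catggaatCtaaccacgacca
LRv4 private: catggaatTtaaccacgacca
LRv5 (A17C) shared: catgcgaagtcactgtAcctg
LRv5 private: catgcgaagtcactgtCcctg
LRv6 (G20A) shared: catgtggtaaagctgtttgGg
LRv6 private: catgtggtaaagctgtttgAg
LTv1 (C5T) shared: catgCaataaaccttgtcttc
LTv1 private: catgTaataaaccttgtcttc
LTv3 (C7G) shared: catggtCtcctatataccatt
LTv3 private: catggtGtcctatataccatt
LTv4 (T19C) shared: catgcagagcacgctggaTgc
LTv4 private: catgcagagcacgctggaCgc
LTv5 (G7A) shared: catgcaGaggaacttgatcgt
LTv5 private: catgcaAaggaacttgatcgt
LTv6 (A21T) shared: catgatggagaagtcgatgaA
LTv6 private: catgatggagaagtcgatgaT

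The 2 classes of one-breed pairs stood beside 1283 pairs polymorphic in both breeds and 34 pairs in which the breeds were fixed for opposite tags. A further 92093 pairs had a minor tag of at most 2% in both breeds, and 7489 pairs fell between the limits. The LT-polymorphic pairs outnumbered the LR-polymorphic pairs by 199 to 135. This order depended on the total required of a pair, because with at least 500 counts in each breed there were 63 LT-polymorphic and 72 LR-polymorphic pairs. The smaller of the breed totals had a median of 531 counts (up to 75336) over the LR-polymorphic pairs and of 367 counts (up to 14671) over the LT-polymorphic pairs, so the deepest members were LR-polymorphic.

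**Figure D1:**
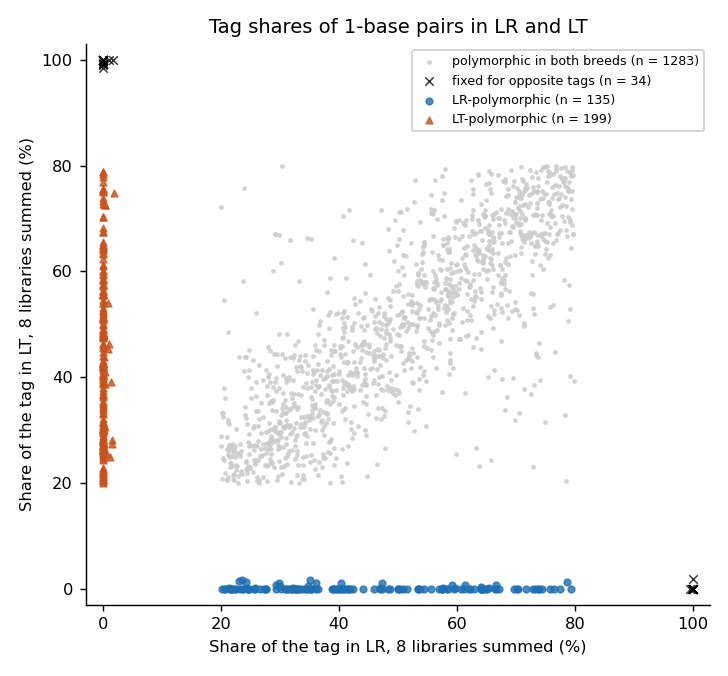
Share of 1 tag of each pair in LR (x axis, percent) and in LT (y axis, percent), with the counts of 8 libraries summed per breed. Points are pairs: the tag plotted is the private tag for the 135 LR-polymorphic and 199 LT-polymorphic pairs, which lie along the axes by construction of the rule, and an arbitrary tag for the pairs polymorphic in both breeds and those fixed oppositely.

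Within the polymorphic breed the private tag was more often the minor than the major tag. Its share had a median of 40.8% over the LR-polymorphic pairs (20.2% to 79.3%) and of 42.4% over the LT-polymorphic pairs (20.1% to 78.9%), and it lay below 50% in 82 of 135 and 130 of 199 pairs. In the other breed the private tag had no count at all in 105 of the 135 LR-polymorphic pairs (77.8%) and in 180 of the 199 LT-polymorphic pairs (90.5%). A count of 0, taken as up to 3 counts, allows a share of 0.0191% to 1.5% at the totals of these pairs, so the depth of the pair set how near to absence the other breed could be placed. One-copy tags had been removed from every library, so a summed 0 can also hide a single copy in each library. The limits given for counts of 0 do not allow for this and can be too low. Single pools of the other breed with at least 20 counts exceeded 2% in 12 LR-polymorphic and 9 LT-polymorphic pairs. The highest such pool was at 46.9% for the LR-polymorphic and at 36.4% for the LT-polymorphic pairs. A low summed share therefore does not mean absence from every pool, nor a low share in each of them. The summed shares chose the members and are given as a description.

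The values next to the limits lay close to them. The LR-polymorphic pairs nearest to the 20% limit had a minor tag of 20.2% and 20.7%, and the nearest pairs outside had 19.9% and 19.8%. The corresponding LT values were 20.1% and 20.5% inside and 19.7% and 19.7% outside. At the 2% limit the LR-polymorphic pairs nearest to it had 1.74% and 1.71% of the private tag in LT, with 2.02% and 2.18% outside, and the LT-polymorphic pairs had 1.75% and 1.5% in LR, with 2.12% and 2.58% outside.

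LRv1 was the deepest member, with 75336 counts in LR and 99351 in LT. Its private tag made up 64.0% of the pair in LR (95% Wilson interval 63.7% to 64.4%) and 73 of 99351 counts in LT, 0.0735%. In the LR pools its share was 92.5% at 35 dpc, 22.4% at 49 dpc, 60.6% at 63 dpc, 0.0699% at 77 dpc, 36.9% at 91 dpc, 71.5% at 2 dpn, 99.98% at 28 dpn and 66.0% at 90 dpn. One pool thus held almost only the shared tag and another almost only the private tag, although each pool had at least 5723 counts of the pair.

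LRv2 had 35941 counts in LR, of which 53.8% (53.3% to 54.3%) were of the private tag, and 32 of 41684 counts in LT. Its share was 5.80% at 35 dpc, 60.5% at 49 dpc, 64.3% at 63 dpc, 27.0% at 77 dpc and 65.2% at 91 dpc, and then 91.4%, 75.6% and 88.3% at 2, 28 and 90 dpn. The 3 postnatal pools were the highest of the 8. LRv4, with 29944 counts in LR and a private share of 62.8%, had 93.2%, 28.9%, 62.2%, 0%, 46.6%, 70.9%, 99.9% and 79.0% over the same 8 stages, an order like that of LRv1.

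LRv5 went from 100% at 35 dpc, where all 3143 counts were of the private tag, to 10.1% at 28 dpn, with the other 6 pools between 44.4% and 66.7%. LRv6 had no count of the private tag at 77 dpc (of 1882) and 91 dpc (of 1423), and 26.2% to 59.7% in the other 6 pools. Its private tag was not counted among 15746 counts in LT, which allows a share of up to 0.0191% if the removed one-copy tags are left aside.

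The deepest LT-polymorphic pair, LTv1, had 14671 counts in LT, 22.9% of them (22.3% to 23.6%) of the private tag, and 20 of 44971 counts in LR. Its private share was 9.73% at 35 dpc, 0.202% at 49 dpc, 40.2% at 63 dpc, 20.9% at 77 dpc and 38.2% at 91 dpc, 0% at 2 dpn and 50% at 28 dpn, where it rested on 40 counts, and the 2 counts at 90 dpn gave no share. LTv3 varied least of these pairs, from 41.0% at 63 dpc to 64.0% at 35 dpc, with an SD of 8.77 percentage points over 8 pools. LTv4 was at 55.9% at 35 dpc (34 counts), 18.1% at 49 dpc, 0% at 63 dpc, 34.8% at 77 dpc, 44.3% at 91 dpc, 21.8% at 2 dpn and 0.303% at 90 dpn. Both tags of LTv3 were thus present in every pool, while LTv1 and LTv4 each had pools with almost none of the private tag.

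LTv5 and LTv6 showed the same contrast. LTv5 lay between 24.6% (77 dpc) and 63.9% (91 dpc), with no private count among 2479 in LR. LTv6 was at 75.6% at 49 dpc and had none of the private tag among 187 counts at 63 dpc, and its other 6 pools lay between 28.4% and 62.1%.

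**Figure D2:**
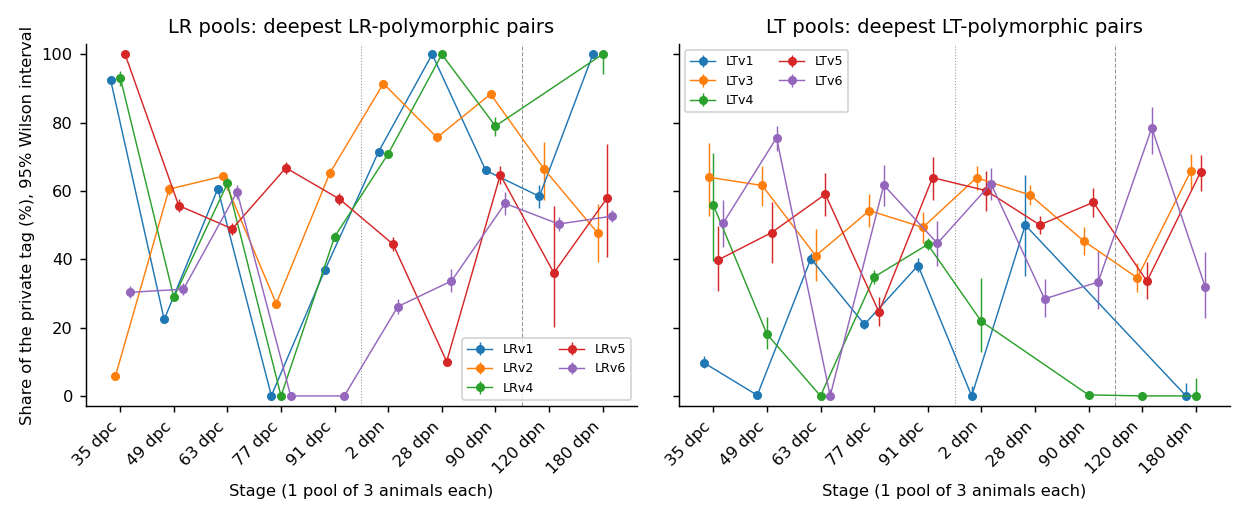
Share of the private tag (y axis, percent) in each pool of 3 animals (x axis, stages in order) for the 5 deepest LR-polymorphic pairs in LR and the 5 deepest LT-polymorphic pairs in LT. Points are single libraries with at least 20 counts of the pair, bars are 95% Wilson intervals for counting error only, the dotted line marks birth and the dashed line the end of the stages used by the rule. LRv1 and LRv4 follow each other, and LTv3 and LTv5 hold both tags in every pool.

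The spread of the private share over the pools was several times the counting error in both classes. In the pairs with at least 6 pools of at least 20 counts, the SD over pools had a median of 22.4 percentage points in 87 LR-polymorphic pairs and of 20.6 in 156 LT-polymorphic pairs, where counting alone gives medians of 5.36 and 6.45. Pairs are not replicates, and no test was made over them.

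A pool of 3 animals holds 6 copies of an autosomal gene, and a draw of 6 copies at the mean share of the pair has a binomial SD that can be set beside the measured one. After removal of counting error the measured SD had a median of 21.9 points in the LR-polymorphic pairs and the draw gave 19.7, with a median ratio of 1.19, and 59 of 87 pairs lay above 1. In the LT-polymorphic pairs the measured median was 19.4 points against 19.6, with a median ratio of 1.02, and 82 of 156 pairs lay above 1. The comparison takes every animal as giving the same amount of RNA and the copies as drawn independently, although fetuses of a pool came from 2 sows. It also takes every tag as autosomal, which was not checked because tags were not matched to genes. A gene with fewer copies in a pool would give a larger SD of the draw and a smaller ratio.

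The pairs polymorphic in both breeds were set beside these values. Of them, 157 had no extra neighbour, a tag 1 base from either of theirs with at least 20% of the pair total, and their SD after removal of counting error had a median of 17.1 points in LR (109 pairs, ratio 0.943) and 16.2 in LT (121 pairs, ratio 0.886). Over all 1283 pairs polymorphic in both breeds, most of them with an extra neighbour, it was 8.01 points in LR (972 pairs, ratio 0.422) and 7.97 in LT (957 pairs, ratio 0.415). The same limit on extra neighbours left out 13 LR-polymorphic and 18 LT-polymorphic pairs and gave medians of 21.7 and 19.4 points, so the values of the members did not rest on them.

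**Figure D3:**
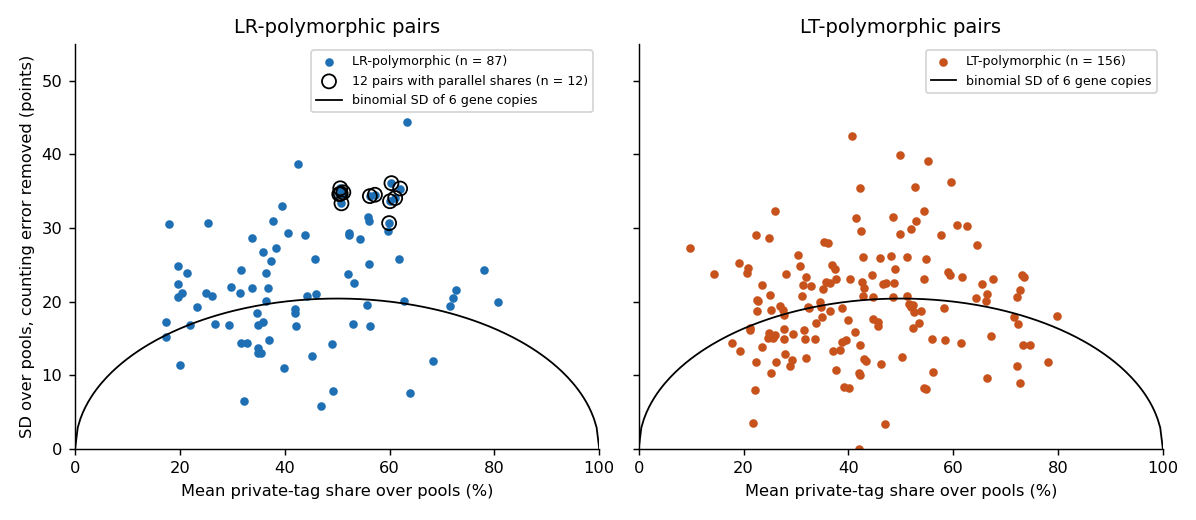
SD of the private-tag share over the pools of the polymorphic breed after removal of counting error (y axis, percentage points) against the mean share over pools (x axis, percent), for 87 LR-polymorphic and 156 LT-polymorphic pairs with at least 6 pools of at least 20 counts. The curve is the binomial SD of 6 gene copies, and circles mark the 12 LR-polymorphic pairs with parallel shares, which lie above the curve.

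Over the pairs with at least 6 pools of at least 20 counts, the SD ran from 8.09 to 44.5 points in the LR-polymorphic pairs. In the LT-polymorphic pairs it ran from 6.80 to 43.4 points. The pairs named here had at least 50 counts in all 8 pools and share no tag with another member. Only 27 LR-polymorphic and 8 LT-polymorphic pairs qualified. The SDs that follow are ranked among these pairs and do not give the range of a class. The smallest SDs of the LR-polymorphic pairs were those of LRv19 (11.6 points, 0% at 35 dpc to 36.5% at 2 dpn), LRv12 (14.5 points, 12.9% at 90 dpn to 47.5% at 77 dpc) and LRv32 (17.3 points, 28.9% at 35 dpc to 82.5% at 63 dpc). The largest were those of LRv17 (36.3 points), LRv9 (35.4 points) and LRv11 (35.4 points), all of which ran from 0% at 77 dpc to 100% at 28 dpn. The smallest SDs of the LT-polymorphic pairs were those of LTv3 (8.77 points), LTv5 (13.0 points) and LTv44 (16.1 points, 0% at 63 dpc to 48.4% at 28 dpn). The largest were those of LTv7 (30.7 points, 10.5% at 35 dpc to 100% at 2 dpn), LTv9 (26.4 points, 0% at 91 dpc to 75.3% at 28 dpn) and LTv33 (23.8 points, 21.96% at 91 dpc to 100% at 35 dpc).

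A minority of members held both tags in every pool, and more LT-polymorphic than LR-polymorphic pairs did so. Of the pairs with at least 20 counts in all 8 pools, the private share stayed between 2% and 98% throughout in 10 of 53 LR-polymorphic and 28 of 59 LT-polymorphic pairs. At least 1 pool was at 2% or less in 37 and 24 pairs, at least 1 was at 98% or more in 20 and 9 pairs, and both ends were reached in 14 and 2 pairs. The LR counts include 12 pairs with parallel shares, described below. Without them 8 of 41 LR-polymorphic pairs had a pool at 98% or more, and 2 reached both ends. The difference between the classes was not tested, because each class is read in its own 8 libraries.

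The pools differed in how many members they held in both forms. Among LR-polymorphic pairs with at least 50 counts in a library, both tags were present (more than 2% and less than 98% private) in 69.1% of 81 pairs at 77 dpc, 55.6% of 54 pairs at 28 dpn and 48.8% of 41 pairs at 180 dpn, against 86.7% to 92.9% in the other 7 LR libraries. At 28 dpn 18 pairs were at 98% or more and 6 at 2% or less, and at 77 dpc 19 were at 2% or less and 6 at 98% or more. Without the 12 pairs with parallel shares described further on, these 3 libraries were at 81.2%, 71.4% and 66.7% and the other 7 at 84.6% to 90.6%. For LT-polymorphic pairs the 10 LT libraries lay between 80.4% and 93.3%. There was 1 pool for each breed and stage, so the animals of a pool and its stage cannot be told apart.

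A set of 12 LR-polymorphic pairs had private shares that moved in parallel over the LR pools. They were found by clustering the 49 LR-polymorphic pairs with at least 20 counts in all 8 pools and no extra neighbour on the correlation of their shares (average linkage, r of at least 0.95), after the values had been seen. Within the set Pearson's r over the 8 pools had a median of 0.979 and was at least 0.930. Among the 49 pairs 59 of 1176 combinations (5.02%) reached 0.95, and 0 of 1431 combinations did so among 54 LT-polymorphic pairs chosen in the same way. The points of each r are the same 8 libraries, and no test was made.

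LRv1 and LRv4, shown above, belong to this set, and the private tags of the other 10 are given to show that the members are different sequences, each with 1 substitution of its own.
LRv3 (T19C): catgctttccatatgaggCat
LRv7 (A9G): catgcaggGgcttcagttgat
LRv8 (A12G): catgatgactaGtagcaagcc
LRv9 (T15C): catgtagaagccccCattgca
LRv11 (T9C): catgagatCttcaacaaatct
LRv14 (C6T): catgaTattcaccacggaact
LRv17 (T9C): catgattcCtaacccactcaa
LRv23 (G18A): catggtaggggaaggagAagg
LRv31 (T9C): catgagtgCagtacgtcttca
LRv33 (A21G): catgtgagaataatgacaatG

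The shares of the set turned together from stage to stage. Their median was 90.5% at 35 dpc (83.1% to 95.02%), 19.8% at 49 dpc (11.5% to 38.9%), 60.6% at 63 dpc (48.0% to 71.9%), 0% at 77 dpc (at most 1.03%), 40.3% at 91 dpc (29.1% to 54.4%), 70.6% at 2 dpn (60.2% to 83.8%), 100% at 28 dpn (99.6% to 100%) and 67.9% at 90 dpn (44.9% to 83.0%). At 77 dpc 9 of the 12 pairs had no count of the private tag. At the pool totals this allows shares of up to 0.199% to 5.08%, with the removed one-copy tags left aside. At 28 dpn 8 of the 12 had no count of the shared tag.

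Among the 8 stages of the rule the pairs were closest at 77 dpc and 28 dpn, where their shares lay at or near 0% and 100%. At the other stages of the rule they differed by more than counting error, with 56.8% for LRv3 and 79.0% for LRv4 at 90 dpn. Neither the rule nor the clustering used the 2 later LR libraries. At 120 dpn 10 of the pairs had at least 20 counts, with shares of 40.8% to 68.7% and a median of 52.1%. At 180 dpn 11 pairs did, with shares of 99.7% to 100%, 7 of them at 100%. In the 8 LT libraries the private tag of the 12 pairs made up 0% to 0.430% of the summed counts.

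All 12 substitutions exchanged A with G or C with T, and 9 of the 12 pairs were among the 20 deepest LR-polymorphic pairs. Together they held 193380 counts, 49.8% of the counts of all LR-polymorphic pairs in LR and 0.656% of all counts of the 8 LR libraries. Their SD after removal of counting error had a median of 34.6 points, 1.70 times that of a 6-copy draw, which takes the tags as autosomal. Of the 14 LR-polymorphic pairs that reached both ends, 12 belonged to the set. Without the set the LR-polymorphic pairs had a median SD of 20.7 points and a median ratio of 1.12, and 2 of the 41 with counts in all 8 pools reached both ends.

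**Figure D4:**
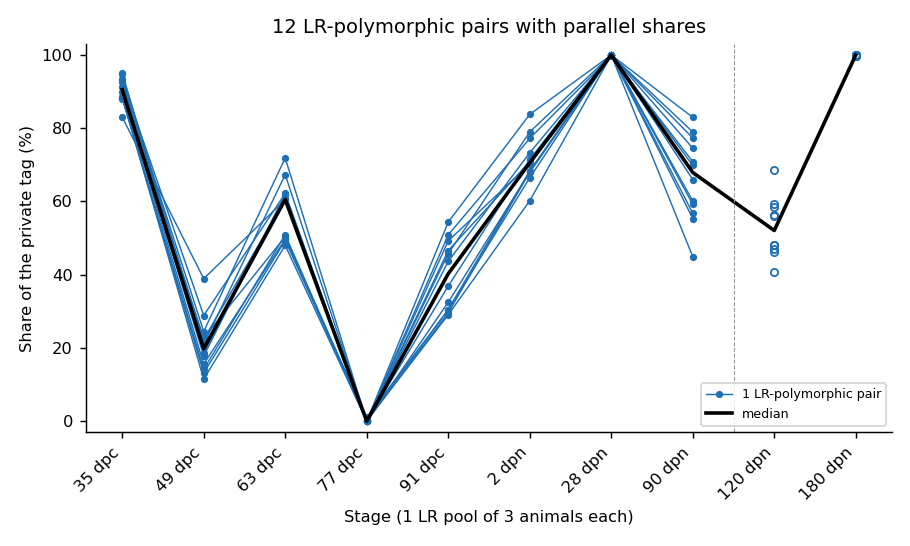
Share of the private tag (y axis, percent) of 12 LR-polymorphic pairs in each LR pool (x axis, stages in order). Thin lines are pairs, open points at 120 and 180 dpn are values that were not used to find the set, and the thick line is the median, which is 0% at 77 dpc and 100% at 28 and 180 dpn.

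The libraries of 120 and 180 dpn were not part of the rule and show whether the split between the breeds held in other animals. The LR libraries of these stages stood apart from the rest, since tags with a further CATG after the first took 0.116% and 0.224% of their counts, against 2.14% to 3.80% in the other 18 libraries. With the counts of both stages summed, 71 LR-polymorphic and 89 LT-polymorphic pairs had at least 20 counts in each breed.

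Most of these pairs met the limits of the rule again. The share limits were met by 50 of the 71 LR-polymorphic pairs (70.4%) and by 65 of the 89 LT-polymorphic pairs (73.0%). Over all 65858 pairs with these counts, 0.182% met them as LR-polymorphic and 0.214% as LT-polymorphic. The private tag was again at most 2% in the other breed in 70 of 71 and 86 of 89 pairs, and the highest values outside were 16.2% in LT and 23.8% in LR. In the polymorphic breed itself the private tag exceeded 2% in 69 of 71 and 85 of 89 pairs. The limit of 2% in the other breed was thus met more often than the range of 20% to 80% in the breed itself. This does not show absence from the other breed. Pairs needed only 20 counts and one-copy tags had been removed, so a private tag above 2% could go uncounted and meet the limit. How often all pairs meet the 2% limit alone at these stages was not determined.

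The private share at the later stages differed from that of the first 8 by a median of 12.8 points in the LR-polymorphic and 11.2 points in the LT-polymorphic pairs. Single stages differed. At 180 dpn in LR 24 of 61 pairs lay between 20% and 80%, with 14 at 2% or less and 14 at 98% or more, 11 of the latter from the parallel set, whereas at 120 dpn 45 of 57 did. In LT 73 of 110 pairs did so at 120 dpn and 90 of 125 at 180 dpn.

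**Figure D5:**
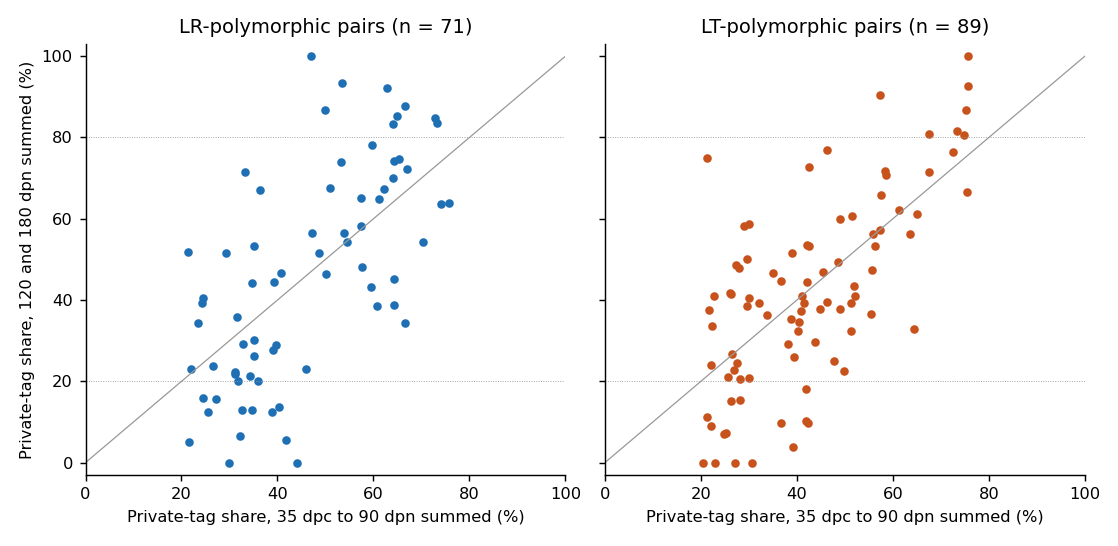
Private-tag share at 120 and 180 dpn summed (y axis, percent) against the summed share of the 8 earlier stages (x axis, percent), for 71 LR-polymorphic pairs in LR and 89 LT-polymorphic pairs in LT with at least 20 counts in both breeds. The diagonal marks equal shares and the dotted lines the limits of 20% and 80%, between which 50 and 67 pairs lie.

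The prenatal and postnatal pools were compared within the polymorphic breed for each pair with at least 4 prenatal pools and all 3 postnatal pools of at least 20 counts. No difference passed the correction for multiple tests. Of 56 LR-polymorphic pairs 6 (10.7%) and of 83 LT-polymorphic pairs 6 (7.23%) had prenatal and postnatal pools that did not overlap. Among the pairs polymorphic in both breeds without an extra neighbour the share was 30% of 70 pairs in LR and 19% of 79 pairs in LT, higher than among the members. In 2-sided exact permutation tests of the difference of the means, 7 LR-polymorphic (12.5%) and 5 LT-polymorphic pairs (6.02%) had a p under 0.05, beside 19.2% of all tests. None had an adjusted p under 0.05 in these exact permutation tests, with Benjamini-Hochberg adjustment over 1023 tests of all pairs polymorphic in one or both breeds, of which 0 passed. With 5 pools against 3 the exact test cannot give a p below 0.0179. Over 1023 tests the adjustment could therefore be passed only if far more pairs than the 196 with a p under 0.05 reached that floor. The lack of adjusted calls thus says little about single pairs. Without 35 dpc, which leaves 4 pools against 3, the pools did not overlap in 17 of 56 LR-polymorphic and 10 of 73 LT-polymorphic pairs. With at least 50 counts in each pool it was 2 of 30 and 1 of 18. No share over the pairs polymorphic in both breeds is given at these settings, and non-overlap is easier to reach with fewer pools.

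Few of the pairs that share no tag with another member and had at least 50 counts in all 8 pools had periods without overlap. They were 2 of 27 LR-polymorphic pairs, LRv2 and LRv12, and 1 of 8 LT-polymorphic pairs, LTv16. The same share over the pairs polymorphic in both breeds was not determined. LRv2, LRv12 and LTv16 are named because their pools did not overlap, so their p-values are those of selected pairs. LRv12 (T21C), whose tags differ in their last base, fell from a mean of 41.7% over the 5 prenatal pools (37.4% to 47.5%) to 14.8% over the 3 postnatal pools (12.9% to 18.2%), with an exact permutation p of 0.0179 (adjusted p = 0.16). The private tag of LRv12 was also present in 1 LT pool, with 110 of 914 counts (12.0%) at 35 dpc, and had at most 2 counts in each of the other 7. LRv2 had means of 44.6% and 85.1% (exact permutation p = 0.0714, adjusted p = 0.274). At 120 and 180 dpn LRv2 had 66.4% of 113 counts and 47.6% of 126 counts, below its 3 earlier postnatal pools. Its total in these 2 LR libraries had fallen far below that at 90 dpn, where it had 3120 counts. LTv16 (G12T) had 80.8% before birth, with 100% at 77 and 91 dpc and 67.3% to 68.6% in the other 3 pools, and 56.4% after birth, 53.7% to 60.2% (exact permutation p = 0.0714, adjusted p = 0.274). At 120 and 180 dpn LTv16 had 84.9% and 90.0%, above its 3 earlier postnatal pools.
LRv12 shared: catggagcgaaagacaaagaT
LRv12 private: catggagcgaaagacaaagaC
LTv16 shared: catgatttactGcacattgat
LTv16 private: catgatttactTcacattgat

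The total of each pair, the sum of its tags in a library, was compared between the breeds to see whether transcripts with a one-breed substitution also differed in level. Tags that share pairs were summed into 1 row, all other tags were rows of their own, and LT was set against LR by the quasi-likelihood test of edgeR over 8 libraries each, with stage as a block. The row held only the 2 tags of the pair for 124 of 133 LR-polymorphic and 180 of 197 LT-polymorphic pairs tested. For the others it held more tags, as in LTv191 with 173, and its value is not the total of the pair alone. Stages stood in for replicates, so the spread is that between stage libraries.

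Over the 8 stages few pair totals were called different between the breeds. Of 133 LR-polymorphic pairs that passed the low-count filter 1 was called at an adjusted p below 0.05, and of 197 LT-polymorphic pairs 0 were called, while 2 pairs of each class did not pass the filter. At an unadjusted p below 0.05 there were 16 LR-polymorphic (12.0%) and 30 LT-polymorphic pairs (15.2%) in the same edgeR fit, beside 13% of all rows tested and 9.97% of those with at least 200 counts in each breed. DESeq2 called 5 and 4 pairs, beside 4.1% of all rows. In the 5 prenatal stages alone edgeR called 7 of 132 LR-polymorphic pairs (5.30%) and 9 of 198 LT-polymorphic pairs (4.55%), beside 5.47% of all rows, and 39 (29.5%) and 75 (37.9%) had an unadjusted p below 0.05, beside 36.8% of all rows. With single stages left out edgeR called 2 LR-polymorphic pairs without 2 dpn, 3 without 28 dpn and 1 without each of the other stages, and 2 LT-polymorphic pairs without 35 dpc and 0 without the others, where 1.08% to 1.65% of all rows were called. Over all 35520 rows tested 1.38% were called, and over the 15452 rows with at least 200 counts in each breed, the limit that the members had to pass, 0.265%. The log2 ratio of LT to LR had a median of -0.07 over the LR-polymorphic and -0.12 over the LT-polymorphic pairs, beside -0.13 over the 15452 rows, and 92.5% and 91.9% of the members lay within 1 log2 unit, as did 92.8% of those rows.

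The called pair was LRv68 (G12A), named here after its values had been seen. Its total was higher in LT than in LR at each of the 8 stages. In LR it was, in counts per 1000000 of the library (TPM), 16.3, 16.1, 17.2, 20.6 and 24.0 from 35 to 91 dpc and 39.5, 2.06 and 1.39 at 2, 28 and 90 dpn. In LT it was 20.3, 134.0, 146.8, 167.4 and 256.7 TPM and 72.2, 13.5 and 4.05 TPM at the same stages. The log2 ratio of LT to LR was 2.24 ± 0.42 (SE, n = 8 libraries per breed, edgeR adjusted p = 0.0107). Its private tag made up 51.6% of 531 counts in LR and 0 of 3678 counts in LT. This allows a share of up to 0.0816% if the removed one-copy tags are left aside. It was called in 12 of 14 alternative fits, and not without the stage block or in the 3 postnatal stages alone.
LRv68 shared: catgggaagatGatttgaacg
LRv68 private: catgggaagatAatttgaacg

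The totals of the deepest members varied widely between stages. LRv1 had a mean of 2783 ± 1629 TPM in LR and 2776 ± 2028 TPM in LT (SD over 8 stages, log2 ratio -0.14 ± 0.27 SE, edgeR adjusted p = 0.807), and LRv2 had 1245 ± 341 and 1235 ± 431 TPM. LTv1 had 1304 ± 1452 TPM in LR and 477 ± 522 TPM in LT (log2 ratio -1.07 ± 0.46 SE, edgeR adjusted p = 0.369). Its LR total was above the LT total at 7 of 8 stages, and in the 5 prenatal stages alone it was called, with a log2 ratio of -1.44 ± 0.36 (SE, edgeR adjusted p = 0.0494). LTv3 had 106.7 ± 53.0 and 99.9 ± 60.1 TPM.

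Most substitutions of the one-breed pairs were transitions, exchanges of A with G or of C with T. They made up 108 of 135 LR-polymorphic pairs (80%) and 146 of 199 LT-polymorphic pairs (73.4%). The share was 88.2% of the 34 pairs fixed oppositely, 56.7% of the 157 pairs polymorphic in both breeds without an extra neighbour and 35.6% of the 92093 pairs with a rare neighbour in both breeds. Without the 12 parallel pairs it was 78.0% in the LR-polymorphic pairs. In the share of transitions alone, the one-breed pairs thus lay nearer to the oppositely fixed pairs than to the rare neighbours.

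In 32 LR-polymorphic (23.7%) and 51 LT-polymorphic pairs (25.6%) one tag had CG where the other had TG or CA, as did 8.43% of the rare-neighbour pairs, 16.6% of the pairs polymorphic in both breeds without an extra neighbour, 31.5% of all pairs polymorphic in both and 41.2% of those fixed oppositely. CG is the site of cytosine methylation in vertebrates and is known to mutate often to these forms. The shared tag had C or G and the private tag T or A in 65 of the transitions of LR-polymorphic pairs and 86 of those of LT-polymorphic pairs, and the reverse in 43 and 60. The differing base lay in the last 2 positions in 14.1% and 15.1% of the pairs, beside 15.1% of the rare-neighbour pairs, so the members were not gathered at the end of the tag. A further CATG inside either tag was found in 3 and 3 pairs.

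Members that share tags with each other were few. The 334 pairs were made of 660 tags in 326 groups, and 14 pairs, 5 LR-polymorphic and 9 LT-polymorphic, shared a tag with another member. The largest groups held 3 pairs each and are shown because in both of them a more abundant tag lay beside a pair. The first joined LTv2, LRv81 and LRv90 around the private tag of LTv2, which had 238 counts in LR and 10879 in LT.
LTv2 (G11A) shared: catgatggagGataatgtgag
LTv2 private: catgatggagAataatgtgag
LRv81 (G17A) private: catgatggagaataatAtgag
LRv90 (G7A) private: catgatAgagaataatgtgag

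In LR the private tags of LRv81 and LRv90 had 161 and 99 counts beside the 238 counts of their shared tag, and the shared tag of LTv2, 1 base from that tag, had 13369. In LT they had 126 and 73 counts beside 10879. LRv81 and LRv90 were therefore members because their shared tag was rare in LR. LTv2 itself was at 74.8% private in LT (51.3% at 90 dpn to 88.1% at 2 dpn) and at 1.75% in LR, close to the 2% limit.

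The second group joined LRv3, LTv94 and LTv98 around the private tag of LRv3, which had 19036 counts in LR and 220 in LT. The private tags of LTv94 and LTv98 had 172 and 153 counts in LT and 38 and 53 in LR, and the shared tag of LRv3 had 50937 counts in LT. These tags differ from it at the same position 19, where all 4 bases were found.
LTv94 (C19G) private: catgctttccatatgaggGat
LTv98 (C19A) private: catgctttccatatgaggAat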

How the data were processed

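Longissimus muscle of 2 pig breeds was profiled by DGE tag sequencing in 20 libraries, each of pooled RNA. The authors digested cDNA with NlaIII, took CATG and 17 further bases, and removed adaptor, empty, low-quality and one-copy tags. The deposited counts per distinct clean tag were not normalized, and beside them the authors gave TPM, copies per 1000000 clean tags. Bowtie 0.12.3 and NCBI36 stand in the submitters' processing notes, with no role given. Counts were used here for every test. Groups followed the breed and stage labels.

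All pairs of tags with 1 differing base after CATG were listed, and the limits were applied to counts summed over 35 dpc to 90 dpn. The members and lists were chosen with earlier results of these data known. Shares of a pool needed 20 counts, carry 95% Wilson intervals and, at 0, a limit of 3 counts, both for counting error only, since PCR copies are not independent molecules. Neither allows for the one-copy tags removed from each library. Totals were tested with edgeR 4.0.16 in R 4.3.3 (TMM, filterByExpr, stage as a block, Benjamini-Hochberg) and DESeq2 1.42.0. Each row was a single tag or the sum of tags of linked pairs with a minor tag of at least 20% in either breed. SEs were taken from the ratio of log2 change and the root of F. Python 3.11.15, numpy 2.4.6, scipy 1.17.1 and pandas 2.3.3 were used for the rest. The pair search and the edgeR step were tested on simulated data.

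Pairs named were the 5 deepest of each class that share no tag, the 3 with the largest and smallest SD and the 2 with the largest non-overlapping period difference among those with 50 counts in each pool, the 2 largest groups sharing tags, and those nearest to each limit. The 12 parallel pairs and LRv68 were named after their values had been seen. Gene lists and cell markers were not applied, since tags were not matched to genes. Alternatives were other limits, totals, stages, scalings and filters, and omission of single stages. The omission of pairs with an extra neighbour and of the parallel pairs was chosen after seeing the data.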

Additional observations from a re-analysis of the deposited data

How the results depend on the processing

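Of 125 alternative values for 12 results, 97 stayed within 1.5 times a count, 1 SD over pairs for the spread or the 95% Wilson interval for transitions, and 28 moved further, and for the latter the cause was not tested except where fewer samples or counts are their construction. The LT-polymorphic count was 307 with limits of 10% to 90%, 131 with 30% to 70% and 126 with the 5 prenatal stages alone. A pair total of at least 100 gave 250 LR-polymorphic and 377 LT-polymorphic pairs, at least 500 gave 72 and 63, and the 3 postnatal stages alone 42 and 43. Without single stages the counts were 120 to 133 and 157 to 189. Pairs that met the rule again at 180 dpn alone were 22 of 54 in LR (40.7%). In LT they were 34 of 47 with at least 50 counts (72.3%), 37 of 53 at 120 dpn alone (69.8%) and 40 of 58 at 180 dpn alone (69.0%), where fewer pairs had counts and the percentage stayed near the 73.0% of the report. Non-overlapping prenatal and postnatal pools were found in 2 of 30 LR-polymorphic and 1 of 18 LT-polymorphic pairs with at least 50 counts per pool. Without 35 dpc, which leaves 4 pools against 3, they were found in 17 of 56 and 10 of 73, with no background share at these settings. Pair totals called in LR-polymorphic and LT-polymorphic pairs were 4 and 4 without the low-count filter (3.54% of all rows), 7 and 9 in the 5 prenatal stages (5.47%), and 5 and 4 by DESeq2 (4.10%). They were 0 and 0 without the stage block (1.08%) and in the 3 postnatal stages (1.22%). Without single stages they were 1 to 3 and 0 to 2 (1.08% to 1.65%). Scaling by total clean tags gave 1 and 0 (1.40%) and shifted the medians to 0.02 and -0.04. The median spread without single stages was 20.99 to 24.4 and 19.05 to 20.5 points, and the share of transitions stayed within its interval in all alternatives run. The breed test of the totals pairs the libraries by stage through its block. No paired analysis by replicate number was possible, because each breed and stage had 1 library. Low totals limit the other-breed share to 1.5% at best in the shallowest pairs, with the removed one-copy tags left aside.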
